A study of Homo sapiens with 16 samples.

Results

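The integrated stress response regulators described here are 9 genes of the deposited translation ratio table. They are the transcription factors ATF4, ATF3, ATF5, DDIT3, CEBPB and CEBPG, the feedback regulators TRIB3 and PPP1R15A, and the effector enzyme CHAC1. They were taken by symbol from the 28252 genes of the table, and all 9 had a ratio in all 8 cultures, as did 15864 genes of the table. The study used H9, an established human embryonic stem cell line, grown without feeder cells in mTeSR1 medium. Cells received an siRNA against OCT4 (siOCT4), the pluripotency factor encoded by POU5F1, or a control siRNA (NC), and were kept at 1% oxygen (hypoxia) or at 20% oxygen. The groups were siOCT4 at 1% oxygen, siOCT4 at 20%, control siRNA at 1% and control siRNA at 20%, each with 2 cultures. Each culture gave a pair of libraries, 1 made from total RNA and 1 from the mRNAs pulled down with translating ribosomes and their nascent chains (RNC), 16 libraries in all. The translation ratio of a gene is its RNC level over its RNA level, as computed by the authors. A ratio holds no level, so the knockdown of POU5F1 was not checked here, and a difference in the ratio can come from the RNC part or the RNA part.

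When cells run short of amino acids, meet unfolded protein in the endoplasmic reticulum or meet other stress, kinases phosphorylate the initiation factor eIF2, and most translation falls. A small class of mRNAs is then translated better, because short reading frames upstream of their main start no longer hold the ribosome back. ATF4 is the best known of these, and it activates a transcriptional programme that includes DDIT3 (CHOP), ATF3, CHAC1, CEBPB, CEBPG and TRIB3. PPP1R15A (GADD34) brings phosphatase to eIF2 and closes the loop. RNC sequencing counts whole mRNAs that carry ribosomes and does not say which reading frame those ribosomes are in.

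The upstream starts known for this control are printed here, because they are the sequence feature for which these mRNAs are best known. Each window is 27 bases of the annotated 5′ leader, on the mRNA strand, with the upstream ATG in capitals. ATF4 and ATF5 share an arrangement of a 3-codon frame followed by a 59-codon frame that runs past the main start in another register, DDIT3 has a 34-codon frame, and PPP1R15A has frames of 22 and 26 codons.
ATF4 3-codon frame: acggccaccATGgcgtattaggggcag
ATF4 59-codon frame: gcttaagccATGgcgcttctcacggca
ATF5 3-codon frame: gccccggccATGgctctgtagcctcga
ATF5 59-codon frame: gctgcagccATGgagtcttccactttc
DDIT3 34-codon frame: gagcgtatcATGttaaagatgagcggg
PPP1R15A 22-codon frame: gttgatcttATGcaagacgctgcacga
PPP1R15A 26-codon frame: gagggtgagATGaacgcgctggcctcc

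Coordinates are those of GENCODE release 29 on GRCh38, which is not the build named for the deposited data. The ATF4 windows are at chr22:39520639-39520665 in exon 1 and at chr22:39520738-39521366, joined over the intron between exons 1 and 2, of the 3-exon transcript with a 280-base leader (plus strand). The ATF5 windows are at chr19:49929265-49929291 in exon 1 and at chr19:49929387-49930744, joined over the intron between exons 1 and 2, of the 3-exon transcript with a 377-base leader (plus strand). The DDIT3 window is at chr12:57520463-57520489 in exon 1 of a transcript with a 180-base leader (minus strand), and the PPP1R15A windows are at chr19:48872446-48872472 and chr19:48872545-48872571 in exon 1 (plus strand). All 4 upstream starts shown for ATF4 and ATF5 have a purine 3 bases before the ATG and a G directly after it, a context that favours initiation. That context was found at 17.1% of the 26201 upstream ATG of the coding genes tested, and the DDIT3 and PPP1R15A starts shown do not have it. The windows shown were picked as known control starts, so this share is a background and not a test.

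On the transcript chosen for each gene, 7 of the 9 regulators had at least 1 upstream ATG, against 53.1% of 14181 coding genes. Several of the 9 are known for upstream frames, so an excess was built into the list and is no result. For ATF4 and DDIT3 the chosen transcript is not the one whose windows are printed. The chosen ATF4 transcript has an 882-base leader with 7 upstream ATG, in which the ATG of the 59-codon frame opens a frame of 2 codons instead. The chosen DDIT3 transcript has a 209-base leader with 2 upstream ATG and lacks the 34-codon frame. Of these 2 ATG, 1 is in frame with the main start and extends the reading frame. CEBPB and CHAC1 had no ATG before the annotated main start, and frames that begin after that start were not looked for in any gene. The annotated leader of CHAC1 is only 20 bases long. CEBPG had 3 upstream ATG in a 662-base leader, TRIB3 had 3 in a 553-base leader, and ATF3 had 1 whose frame runs past the main start, as an upstream frame does in 17.2% of coding genes. Transcript GC content ranged from 43.9% in CEBPG to 66.2% in CEBPB (median of coding genes 49.8%), and transcript length from 940 bases in DDIT3 to 4109 bases in CEBPG (median 3218).

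Across the whole table, the ratio followed the GC content of the transcript steeply in the 2 cultures of siOCT4 cells at 1% oxygen and in the 2 of control cells at 20%, where its log2 fell by 1.20 and 1.24, and by 1.50 and 1.13, per 10 percentage points of GC. In the other 4 cultures the slope was between -0.28 and 0.01. Each of the 4 comparisons that change only the siRNA or only the oxygen therefore sets a steep group against a flat one. Values marked "GC corrected" are residuals to this trend, fitted in each culture (15261 genes), and are given where they change a call or move a fold by more than 1.5 times. The median log2 difference of all genes was 0.42 for siOCT4 against control at 1% oxygen, -0.09 at 20%, 0.27 for 1% against 20% oxygen in siOCT4 cells and -0.31 in control cells. All 8 pluripotent cell markers looked for had a ratio in every culture, as did 5 of 6 fibroblast markers and 3 of 6 trophoblast markers, but a ratio gives no level, so cell identity could not be checked from the table.

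**Figure D1:**
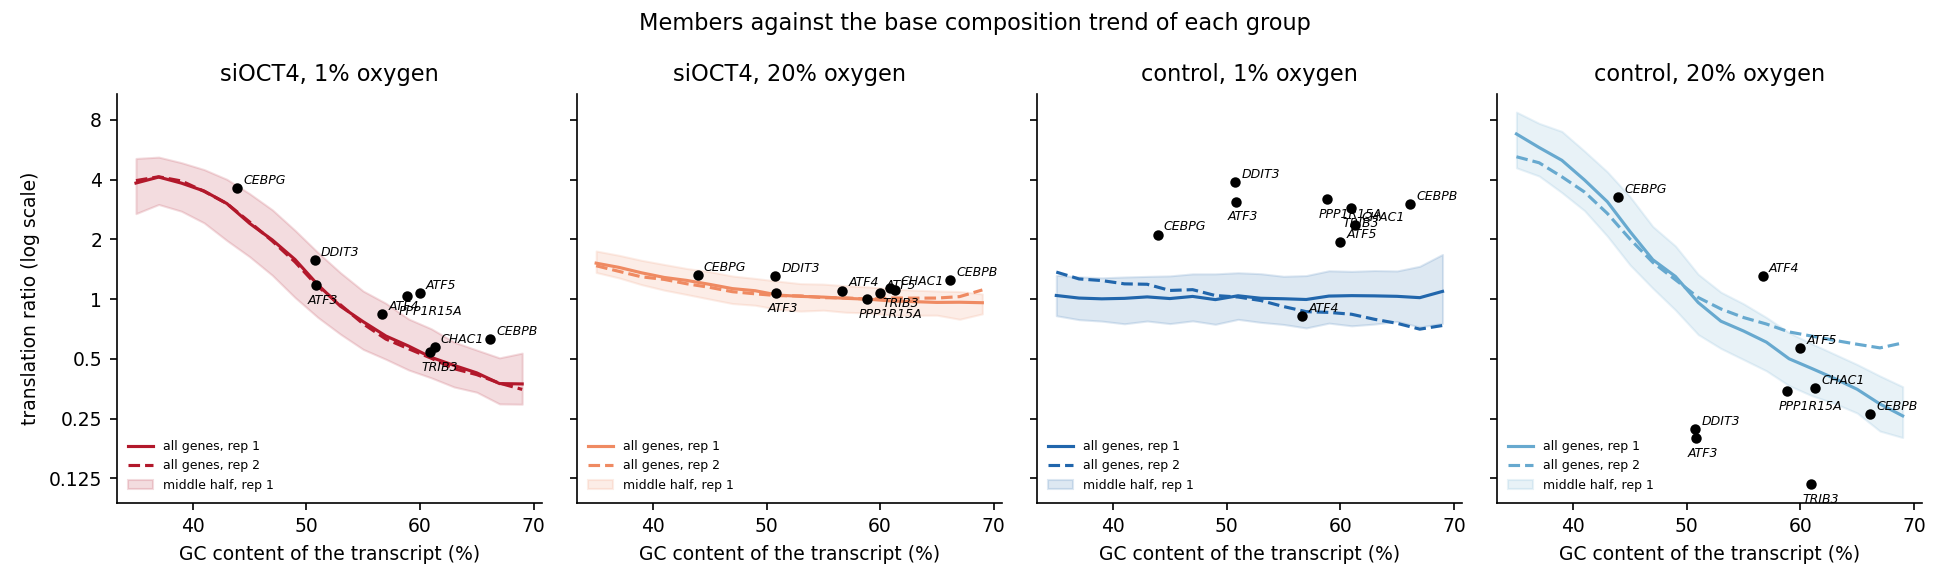
Translation ratio (log scale) against the GC content of the transcript in percent, 1 panel per group. Lines are medians of all genes in bins of GC content for replicate 1 (solid) and replicate 2 (dashed), the band holds the central 50% of genes in replicate 1, and points are the 9 stress regulators, each at the mean of the log2 ratios of 2 cultures; in the control cultures at 1% oxygen 8 of the points lie above the band, and in the control cultures at 20% DDIT3, ATF3, TRIB3 and PPP1R15A lie below it.

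In control cells 7 of the 9 regulators had high ratios at 1% oxygen and low ones at 20%, and siOCT4 cells of either oxygen level lay between. The median ratio of the 9 was 1.09 and 0.974 in the siOCT4 cultures at 1% oxygen and 1.08 and 1.14 in the siOCT4 cultures at 20%. It was 3.02 and 2.36 in the control cultures at 1% oxygen and 0.211 and 0.444 in the control cultures at 20%. The medians of all genes ranged from 1.02 to 1.35 over the 8 cultures. The ratios of all genes were packed more closely in siOCT4 cells at 20% oxygen. For 1018 genes with a GC content of 56% to 58%, quartiles in replicate 1 were 0.859 and 1.17 there. They were 0.498 and 0.953 in siOCT4 cells at 1%, 0.716 and 1.31 in control cells at 1%, and 0.436 and 0.809 at 20%. Between replicates, log2 ratios correlated at r = 0.88, 0.44, 0.61 and 0.87 (siOCT4 at 1% and 20%, control at 1% and 20%). What part this had in the order of the regulators was not tested. ATF3, ATF5, DDIT3, CEBPB, TRIB3, PPP1R15A and CHAC1 each had both control cultures at 1% above all 4 siOCT4 cultures, and these above both control cultures at 20%. This order, picked after the values were seen, was found in 785 of 15864 genes (4.95%) in the ratios as deposited. GC corrected, ATF5 lost it and the others named kept it. The share of all genes with this order was not counted GC corrected. The residuals of ATF5 were 0.036 and 0.220 in the siOCT4 cultures at 20% and 0.126 and -0.067 in the control cultures at 20%. ATF4 and CEBPG had other orders.

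**Figure D2:**
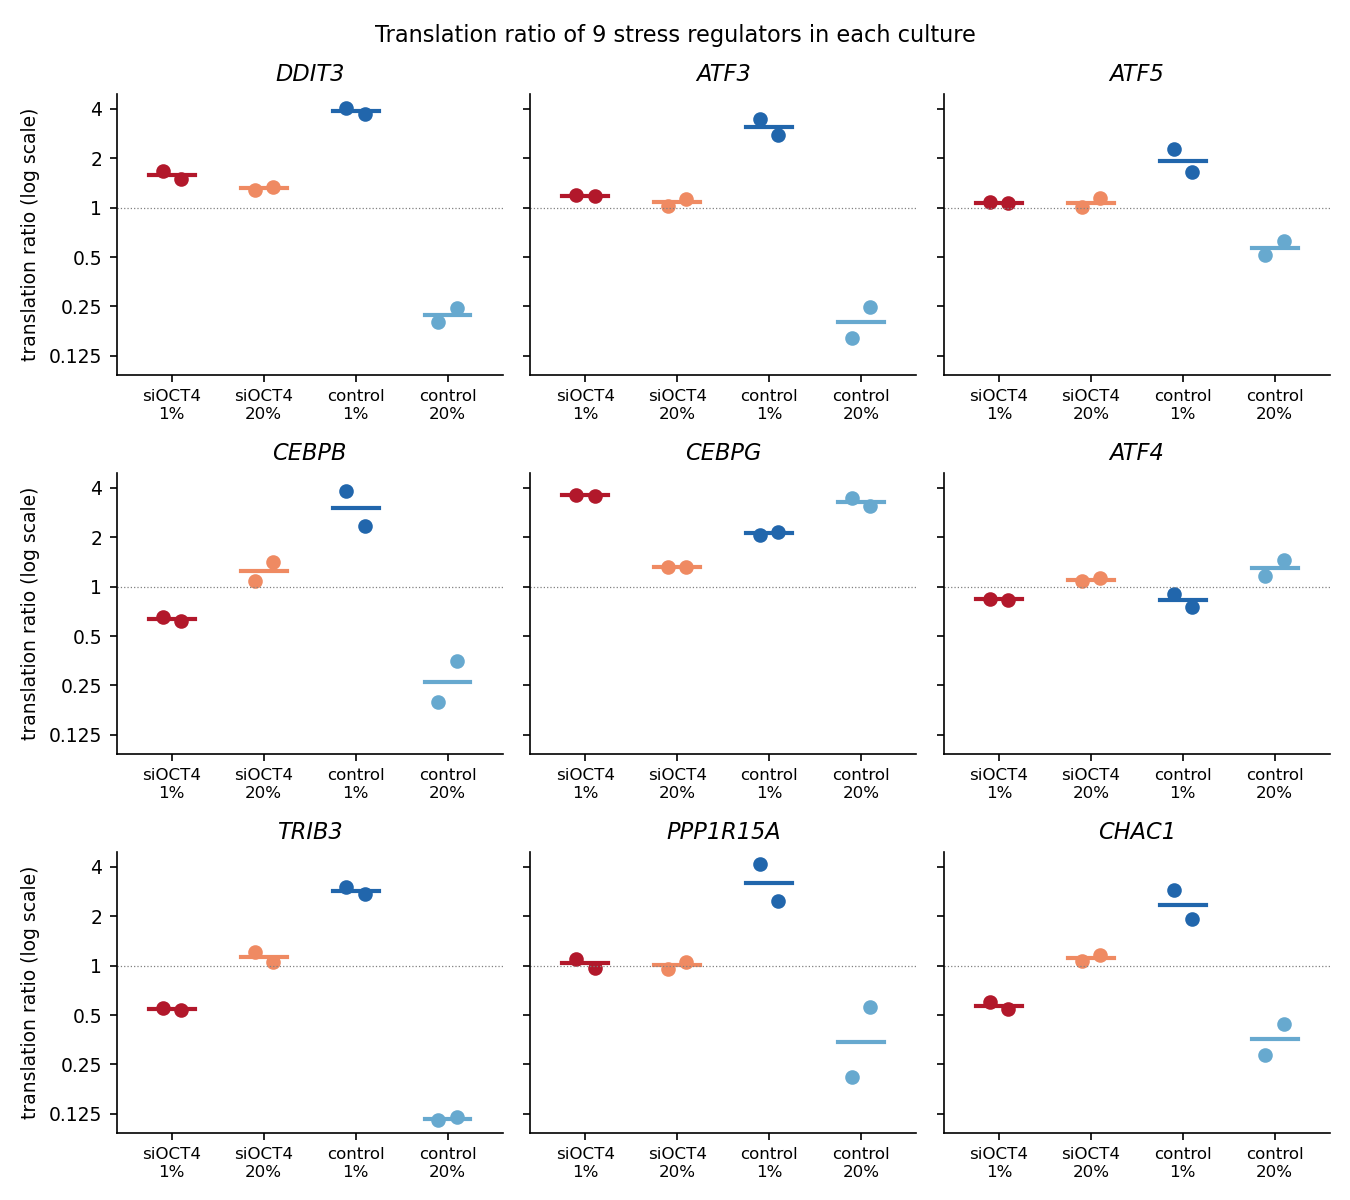
Translation ratio of the 9 regulators in each of the 8 cultures (points, log scale) with the mean of the log2 values of each group (bar); the dotted line marks a ratio of 1. In 7 panels the points follow the order control at 1% over the siOCT4 groups over control at 20%, whereas ATF4 stays between 0.754 and 1.46 and CEBPG between 1.32 and 3.63.

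DDIT3, a transcription factor that promotes cell death under lasting stress, had ratios of 1.67 and 1.49 in the siOCT4 cultures at 1% oxygen, 1.28 and 1.34 in the siOCT4 cultures at 20%, 4.04 and 3.73 in the control cultures at 1%, and 0.201 and 0.245 in the control cultures at 20%. ATF3, a factor that represses and activates stress genes, had 1.19 and 1.18, 1.02 and 1.13, 3.46 and 2.77, and 0.161 and 0.249 in the same order of groups. For both genes no group overlapped another. The annotated DDIT3 locus overlaps MARS and MBD6 on the opposite strand, and the coding gene AC022506.1 and MIR616 on its own strand. The strand setting of the counting is not given in the sources used here, so reads of the opposite-strand genes cannot be told apart from those of DDIT3, and reads shared with a gene on the same strand could not be told apart by strand at all.

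CEBPB, a basic leucine zipper factor that pairs with ATF4 and DDIT3, had ratios of 0.649 and 0.615 in the siOCT4 cultures at 1% oxygen and 1.08 and 1.42 in the siOCT4 cultures at 20%. It had 3.83 and 2.36 in the control cultures at 1% and 0.199 and 0.350 in the control cultures at 20%. Its antisense gene CEBPB-AS1 overlaps it. In 1 culture the ratio of CEBPB recurred in other genes, as small read numbers can produce, but no counts were available to check this. ATF5, a relative of ATF4 with a like leader, had 1.09 and 1.06 in the siOCT4 cultures at 1% and 1.01 and 1.14 at 20%, 2.26 and 1.65 in the control cultures at 1%, and 0.516 and 0.626 at 20%. The siOCT4 groups of ATF5 overlapped, and the gene lies across IL4I1, NUP62 and AC011452.1, which are on the opposite strand, and across MIR4751 on its own strand.

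TRIB3, a pseudokinase that dampens ATF4 activity, had the widest range of the 9: 0.550 and 0.535 in the siOCT4 cultures at 1% oxygen, 1.22 and 1.06 in the siOCT4 cultures at 20%, 3.02 and 2.72 in the control cultures at 1%, and 0.115 and 0.119 in the control cultures at 20%. PPP1R15A had 1.10 and 0.974 in the siOCT4 cultures at 1% and 0.957 and 1.05 at 20%, 4.15 and 2.47 in the control cultures at 1%, and 0.211 and 0.561 at 20%. Its control replicates were the furthest apart of the 9 at either oxygen level, and its siOCT4 groups overlapped. CHAC1, an enzyme that degrades glutathione, had 0.598 and 0.546 in the siOCT4 cultures at 1% and 1.07 and 1.17 at 20%, 2.88 and 1.93 in the control cultures at 1%, and 0.287 and 0.444 at 20%.

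ATF4, the master factor, moved in a narrow range. Its ratios were 0.840 and 0.835 in the siOCT4 cultures at 1% oxygen, 1.09 and 1.12 in the siOCT4 cultures at 20%, 0.901 and 0.754 in the control cultures at 1%, and 1.17 and 1.46 in the control cultures at 20%. Both groups at 1% lay below both groups at 20%, and the groups at 1% overlapped each other. ATF4 has 4 annotated processed pseudogenes (ATF4P1 to ATF4P4), and how reads shared with them were counted is not given in the sources used here.

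CEBPG, a short basic leucine zipper partner of ATF4, had ratios of 3.63 and 3.59 in the siOCT4 cultures at 1% oxygen, 1.32 and 1.32 in the siOCT4 cultures at 20%, 2.08 and 2.15 in the control cultures at 1%, and 3.47 and 3.09 in the control cultures at 20%. It has the lowest GC content of the 9 and was higher in the 2 groups with a steep GC trend. Over the 8 cultures, the log2 ratio of CEBPG correlated with the median of the other 8 regulators at r = -0.48 and that of ATF4 at r = -0.66, whereas the other 7 had r between 0.94 and 0.99. These correlations describe 8 cultures in 4 groups that share the GC trends.

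Within each culture the ranks of the ratios as deposited showed the same pattern. In siOCT4 cells DDIT3 was above 56.7% and 53.5% of the 15864 genes at 1% oxygen and 69.3% and 76.1% at 20%. In the control cultures at 1% oxygen DDIT3 was above 99.2% and 99.1% and TRIB3 above 98.1% and 97.9%. In the control cultures at 20% DDIT3 was above only 2.80% and 1.06%, and TRIB3 above 0.750% and 0.214%. ATF4 stayed between the percentiles 25.4 and 56.9 in all 8 cultures. Relative to the GC trend, ATF4 was at the percentiles 62.2 and 64.5 in the siOCT4 cultures at 1%, 62.7 and 66.9 in the siOCT4 cultures at 20%, 39.5 and 32.9 in the control cultures at 1%, and 90.7 and 92.8 in the control cultures at 20%. CEBPG was then at 94.6 and 93.7 in the control cultures at 1%, and between 65.5 and 76.4 in the other 6 cultures.

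**Figure D3:**
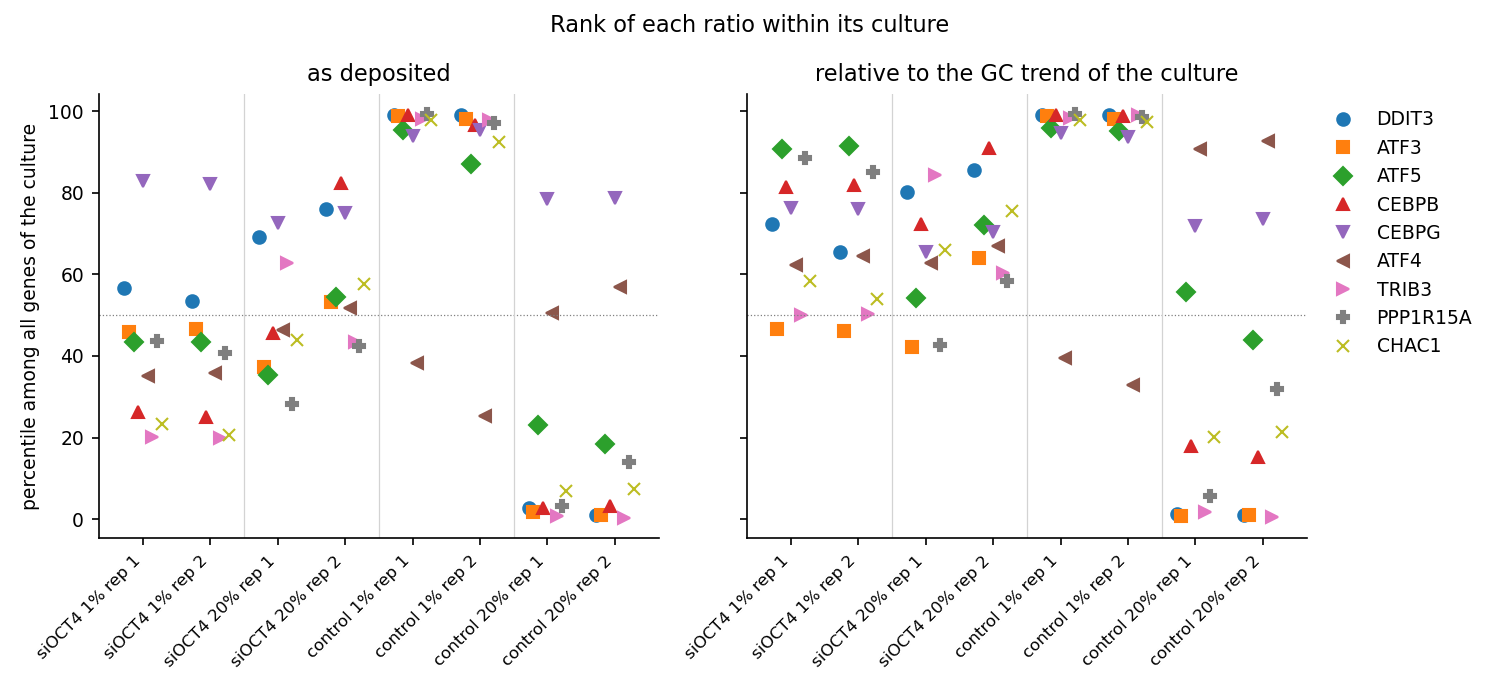
Percentile of each of the 9 regulators among all genes of the same culture, from the ratio as deposited (left) and from its residual to the GC trend of the culture (right), with 1 column per culture. In the control cultures at 1% oxygen 8 of the regulators are near the top in both panels; in the control cultures at 20% DDIT3, ATF3 and TRIB3 are under percentile 3 in both, while ATF4 is near the middle as deposited and above percentile 90 relative to the trend.

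Low oxygen was first compared in control cells, which asks how hypoxia alone went with the ratios. The ratio of 7 regulators was higher at 1% than at 20% oxygen and that of 2 was lower; among all genes 60.2% were called, 20.5% as higher and 39.6% as lower (limma, two-sided, adjusted p under 0.05 over 15864 genes). TRIB3 was 24.5-fold higher (log2 difference 4.61 ± 0.16 SE, adjusted p = 0.000152; 14.8-fold GC corrected). DDIT3 was 17.5-fold higher (4.13 ± 0.15, adjusted p = 0.000152) and ATF3 15.5-fold higher (3.95 ± 0.24, adjusted p = 0.00016), and neither fold moved by more than 1.5 times with the correction. CEBPB was 11.4-fold higher (adjusted p = 0.00048; 5.55-fold GC corrected), PPP1R15A 9.30-fold (adjusted p = 0.00236; 6.11-fold GC corrected), CHAC1 6.59-fold (adjusted p = 0.0005; 3.92-fold GC corrected) and ATF5 3.40-fold (adjusted p = 0.000666; 2.13-fold GC corrected). These 7 calls stayed in every fit that left out a culture, with and without the GC correction.

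ATF4 fell at 1% oxygen in control cells by 0.66 on the log2 scale (± 0.17 SE, adjusted p = 0.0152), and by 1.14 GC corrected (adjusted p = 0.000924). As deposited, leaving out the control culture replicate 2 at 1% oxygen ended its call (log2 difference -0.54, adjusted p = 0.0671); GC corrected it stayed without any culture. CEBPG was 1.55-fold lower as deposited (adjusted p = 0.00714) and 1.52-fold higher GC corrected (adjusted p = 0.0141), so its direction depended on the correction. GC corrected, 8 regulators were thus higher and 1, ATF4, was lower, where 46.1% of genes were called, 23.1% as higher and 23.1% as lower. As deposited, the median log2 difference of the 9 was 3.22, against -0.31 for all genes.

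The next comparison was siOCT4 against control siRNA at 20% oxygen, which asks how loss of OCT4 went with the ratios in normal culture. The ratio of 7 regulators was higher in siOCT4 cells and that of 1 was lower, where 53.3% of all genes were called, 19.2% as higher and 34.1% as lower. TRIB3 was 9.72-fold higher (log2 difference 3.28 ± 0.16 SE, adjusted p = 0.000653; 5.28-fold GC corrected), DDIT3 5.89-fold (2.56 ± 0.15, adjusted p = 0.000653) and ATF3 5.38-fold (2.43 ± 0.24, adjusted p = 0.000797). CEBPB was 4.71-fold higher (adjusted p = 0.00365; 2.01-fold GC corrected) and CHAC1 3.13-fold (adjusted p = 0.00467; 1.67-fold GC corrected). PPP1R15A was 2.92-fold higher (adjusted p = 0.0406) and ATF5 1.89-fold (adjusted p = 0.011), and neither was called GC corrected (1.74-fold, adjusted p = 0.179, and 1.07-fold, adjusted p = 0.705). CEBPG was 2.48-fold lower (adjusted p = 0.000799), a call also not made GC corrected (1.19-fold lower, adjusted p = 0.242).

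ATF4 had log2 differences of -0.24 ± 0.17 as deposited, which was not called (adjusted p = 0.257), and -0.84 ± 0.10 GC corrected, which was (adjusted p = 0.016). GC corrected, 5 regulators were higher and 1 lower, where 14.7% of genes were called, 7.23% as higher and 7.46% as lower. All 6 of these GC corrected calls were lost when either siOCT4 culture at 20% oxygen was left out (0 calls each), and the TRIB3, DDIT3, ATF3, CEBPB, CHAC1 and CEBPG calls as deposited held without any culture. As deposited, PPP1R15A was not called without either siOCT4 culture at 20%, without control replicate 1 at 20%, or without either siOCT4 culture at 1% (adjusted p 0.0635 to 0.139), and ATF5 was not called without siOCT4 replicate 2 at 20% (adjusted p = 0.0689) or control replicate 1 at 20% (adjusted p = 0.0533).

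At 1% oxygen the direction between the siRNAs was the opposite. The ratio of 7 regulators was lower in siOCT4 cells than in control cells and that of 1, CEBPG, was higher; among all genes 61.0% were called, 41.1% as higher and 19.9% as lower. TRIB3 was 5.28-fold lower (log2 difference -2.40 ± 0.16 SE, adjusted p = 0.000303; 3.19-fold GC corrected), CEBPB 4.76-fold (-2.25 ± 0.35, adjusted p = 0.00266; 2.26-fold GC corrected) and CHAC1 4.12-fold (-2.04 ± 0.28, adjusted p = 0.00156; 2.45-fold GC corrected). ATF3 was 2.62-fold lower (adjusted p = 0.00366) and DDIT3 2.46-fold (adjusted p = 0.000888). PPP1R15A was 3.09-fold lower (adjusted p = 0.0297) and ATF5 1.80-fold (adjusted p = 0.0118), and both calls were lost GC corrected (2.08-fold, adjusted p = 0.0565, and 1.14-fold, adjusted p = 0.371). CEBPG was 1.71-fold higher (adjusted p = 0.00328), but 1.42-fold lower GC corrected (adjusted p = 0.026).

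ATF4 had a log2 difference of 0.02 ± 0.17 at 1% oxygen (adjusted p = 0.913), and GC corrected it was 1.34-fold higher in siOCT4 cells (adjusted p = 0.0187). GC corrected, 6 regulators were lower and 1 higher, where 44.4% of genes were called, 21.7% as higher and 22.7% as lower. The ATF3, DDIT3, CEBPB, TRIB3 and CHAC1 calls held without any culture in both forms. As deposited, PPP1R15A was not called without either siOCT4 culture at 1% or at 20%, or without control replicate 1 at 1% (adjusted p 0.0501 to 0.144), and ATF5 was not called without siOCT4 replicate 2 at 1% (adjusted p = 0.0544) or control replicate 1 at 1% (adjusted p = 0.052). GC corrected, the ATF4 call was made in 4 and the CEBPG call in 3 of the 8 fits that left out a culture.

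Within siOCT4 cells fewer regulators were called between the oxygen levels. The ratio of CEBPG was higher at 1% than at 20% oxygen and those of TRIB3 and CHAC1 were lower, 3 of 9 regulators where 59.0% of all genes were called, 37.4% as higher and 21.6% as lower. CEBPG was 2.73-fold higher (adjusted p = 0.000721), TRIB3 2.09-fold lower (adjusted p = 0.00262) and CHAC1 1.96-fold lower (adjusted p = 0.0269). None of these 3 was called GC corrected (1.27-fold, 1.14-fold and 1.04-fold, adjusted p = 0.0922, 0.449 and 0.731). The only call then was ATF5, 1.75-fold higher at 1% oxygen (adjusted p = 0.0125), where 37.0% of genes were called, 18.0% as lower and the others as higher. DDIT3 had a log2 difference of 0.27 ± 0.15 (adjusted p = 0.176), ATF3 of 0.13 ± 0.24 (adjusted p = 0.656) and PPP1R15A of 0.04 ± 0.49 (adjusted p = 0.945). The result for DDIT3, the shortest transcript of the 9, depended on the correction. Its log2 difference was 0.04 GC corrected (adjusted p = 0.822), and 0.63 with GC and length corrected, which was called (adjusted p = 0.0135). As deposited, the CHAC1 call was lost without any of the 4 siOCT4 cultures (adjusted p 0.0753 to 0.113); the ATF5 call GC corrected was made in 4 of 8 fits that left out a culture.

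**Figure D4:**
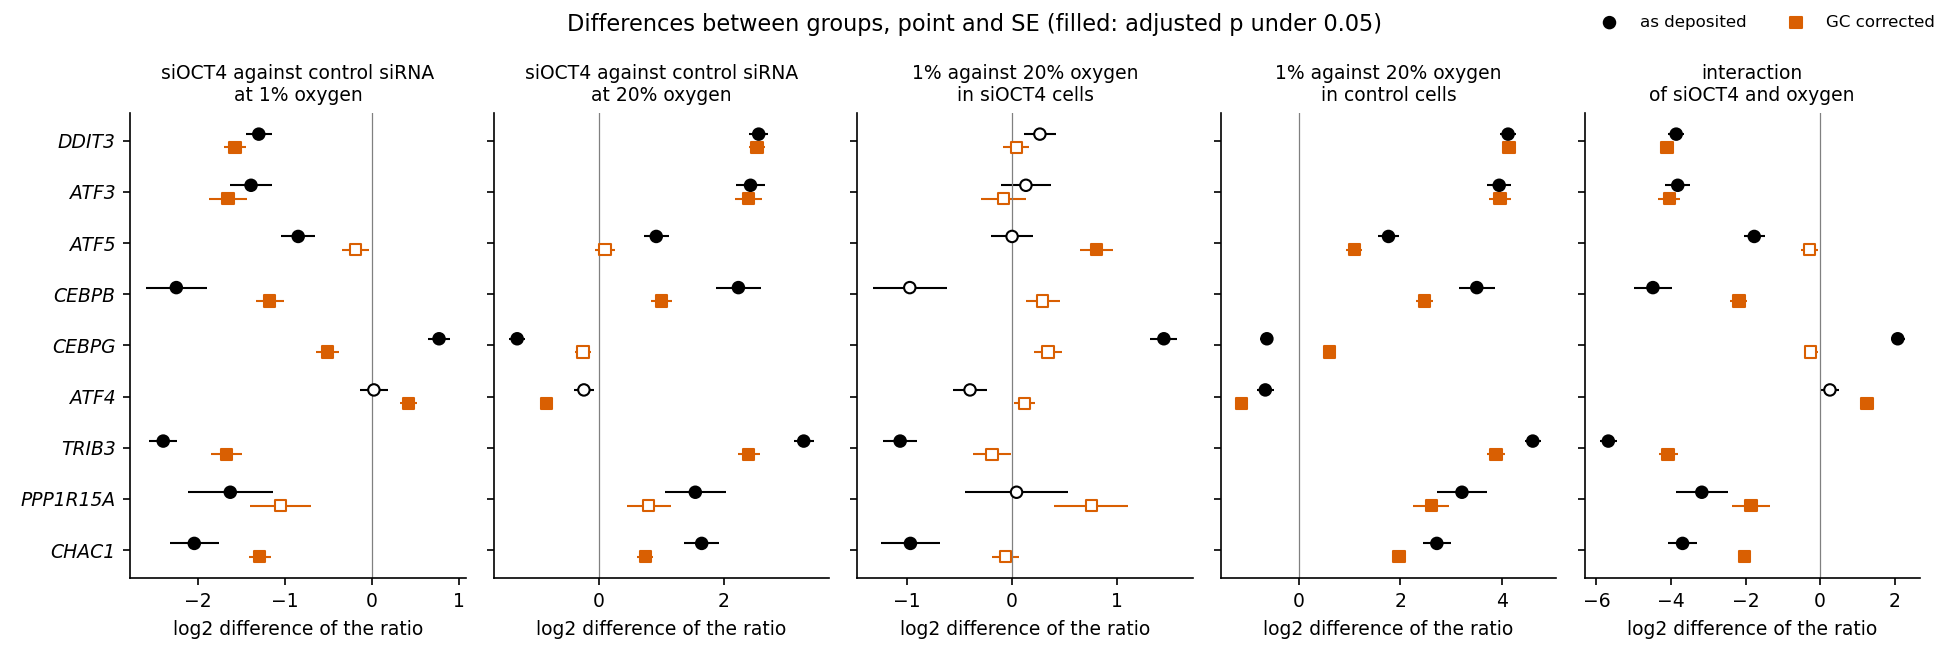
Log2 difference of the translation ratio (point) with its standard error (bar) for the 9 regulators in 4 comparisons and in the interaction, from the ratios as deposited (black circles) and GC corrected (orange squares); filled symbols passed an adjusted p of 0.05. DDIT3 and ATF3 are nearly the same in both forms, TRIB3, CEBPB and CHAC1 keep their direction at a smaller size between siRNAs and in control cells, and CEBPG changes sign in control cells and at 1% oxygen.

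The 2 groups with a steep GC trend and the 2 with a flat one were also set against each other, which changes siRNA and oxygen together but compares like trends. In siOCT4 cells at 1% oxygen against control cells at 20%, 5 regulators were higher and 1 lower, where 26.5% of genes were called, 13.5% as higher and 13.1% as lower. DDIT3 was 7.09-fold higher (log2 difference 2.83 ± 0.15 SE, adjusted p = 0.003), ATF3 5.90-fold (2.56 ± 0.24, adjusted p = 0.00433) and TRIB3 4.64-fold (2.21 ± 0.16, adjusted p = 0.003), and all 3 held without any culture. CEBPB was 2.39-fold (adjusted p = 0.0479) and ATF5 1.89-fold higher (adjusted p = 0.0222), and ATF4 was 1.56-fold lower (adjusted p = 0.037). These 3 calls were lost without either siOCT4 culture at 1% (adjusted p 0.0908 to 0.167), where 3 regulators remained called, and in some of the other fits. GC corrected, 7 were higher and 1, ATF4, was lower, where 37.1% of genes were called, 18.1% as higher and the others as lower, and PPP1R15A (2.94-fold, adjusted p = 0.0203) and CHAC1 (1.60-fold, adjusted p = 0.0109) were among them.

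In siOCT4 cells at 20% oxygen against control cells at 1%, 5 regulators were lower and none was higher, where 11.7% of genes were called, 2.91% as lower and 8.78% as higher. DDIT3 was 2.96-fold lower (log2 difference -1.57 ± 0.15 SE, adjusted p = 0.0108), ATF3 2.87-fold (-1.52 ± 0.24, adjusted p = 0.0196) and TRIB3 2.52-fold (-1.33 ± 0.16, adjusted p = 0.0122). ATF5 was 1.80-fold (adjusted p = 0.0479) and CEBPG 1.60-fold lower (adjusted p = 0.0295). GC corrected, all regulators but ATF4 were called lower (8 of 9), where 22.6% of genes were called, 11.9% as lower and 10.7% as higher. These calls rest on the 4 cultures compared: as deposited no regulator and no gene at all was called without either siOCT4 culture at 20% (3107 and 3037 genes, and 6 and 8 regulators, at an unadjusted p under 0.05), and 1 regulator without either control culture at 1%.

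The difference between the siRNA comparisons at 1% and at 20% oxygen was tested as an interaction of siOCT4 and oxygen. It was negative for 7 regulators and positive for 1, where 68.7% of genes were called, 26.2% as negative and 42.5% as positive. It was -5.68 ± 0.23 (log2, SE) for TRIB3 (adjusted p = 8e-05) and -3.86 ± 0.21 for DDIT3 (adjusted p = 8e-05), and all 8 calls held in each fit that left out a culture. For ATF4 it was 0.26 ± 0.23 (adjusted p = 0.351) as deposited and 1.26 ± 0.14 (adjusted p = 0.00184) GC corrected. GC corrected, 6 interactions were negative and that of ATF4 was positive, where 43.7% of genes were called, 21.4% as negative and 22.3% as positive. Those of ATF5 and CEBPG were then not called (-0.29, adjusted p = 0.339, and -0.26, adjusted p = 0.312).

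Known target genes of ATF4 were also compared. In control cells, 31 of 38 measured targets were higher at 1% than at 20% oxygen and 3 were lower (33 and 2 GC corrected), where 20.5% of all genes were called higher and 39.6% lower (23.1% each way GC corrected), with a median log2 difference of 1.60 against -0.31 for all genes. GDF15, a secreted stress cytokine, had 3.36 and 2.54 in the control cultures at 1% and 0.0146 and 0.0210 at 20% (167-fold, adjusted p = 0.000152; 92.8-fold GC corrected). DDIT4, an inhibitor of the growth kinase mTORC1, had 5.47 and 3.13 in the control cultures at 1% and 0.0795 and 0.174 at 20% (35.1-fold, adjusted p = 0.000284). Among the 38 targets, 25 were higher and 7 lower in siOCT4 than in the control cultures at 20% oxygen (22 and 2 GC corrected), where 19.2% of all genes were higher and 34.1% lower (7.23% and 7.46% GC corrected). At 1% oxygen 6 were higher and 27 lower in siOCT4 cells (3 and 31 GC corrected), where 41.1% of all genes were higher and 19.9% lower (21.7% and 22.7% GC corrected). In siOCT4 cells 9 were higher and 13 lower at 1% than at 20% oxygen (6 and 15 GC corrected), where 37.4% of all genes were higher and 21.6% lower (GC corrected 18.0% were lower, of 37.0% called in all). With a culture left out, the targets called higher at 1% in control cells numbered 26 to 30 and those called lower in siOCT4 cells at 1% 23 to 28. Without siOCT4 replicate 2 at 20%, 15 targets were called higher and 4 lower in siOCT4 cells at 20%, and the count lower at 1% in siOCT4 cells was 3 to 6 without any 1 of the siOCT4 cultures.

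Fewer genes of the machinery upstream of ATF4 were called once the GC trend was removed. Of 10 measured eIF2 kinases and their regulators, 1 was higher and 8 were lower at 1% than at 20% oxygen in control cells, but 1 and 2 GC corrected. Among all genes 20.5% were called higher and 39.6% lower, and 23.1% each way GC corrected, so the corrected counts are no more than the share of all genes. DNAJC3 (P58IPK), an inhibitor of the kinase PERK, had 1.19 and 1.26 at 1% and 6.99 and 5.73 at 20% in control cells (5.16-fold lower, adjusted p = 0.000162; 1.39-fold lower GC corrected, adjusted p = 0.0228). Of 16 genes of eIF2, eIF2B, start selection and the eIF2 phosphatase, 2 were higher and 10 lower in the same comparison (4 and 3 GC corrected, near the share of all genes). EIF2AK3 (PERK) itself had 5.23 and 5.46 in the siOCT4 cultures at 1% oxygen and 1.30 and 1.32 in the siOCT4 cultures at 20% (4.08-fold higher, adjusted p = 0.000877; 1.97-fold GC corrected, adjusted p = 0.013), and PPP1R15B, the constitutive counterpart of PPP1R15A, had 5.33 and 4.96 against 1.22 and 1.21 (4.23-fold higher, adjusted p = 0.000865; 1.90-fold GC corrected).

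Of 14 other measured mRNAs known for upstream frames, 1 was higher and 12 were lower at 1% than at 20% oxygen in control cells (4 and 6 GC corrected), where 20.5% of all genes were higher and 39.6% lower (23.1% each way GC corrected). The difference between this list and the 9 regulators was not tested. AMD1, an enzyme of polyamine synthesis with an upstream frame, had 0.737 and 0.885 in the control cultures at 1% and 13.4 and 10.01 at 20% (14.4-fold lower, adjusted p = 0.000152; 3.36-fold lower GC corrected). SLC7A1, an arginine transporter, had 1.29 and 1.38 against 0.453 and 0.435 (log2 difference 1.59 ± 0.14, adjusted p = 0.000291). Over all coding genes in that comparison, the median log2 difference was -0.49 for 7537 genes with an upstream ATG and -0.17 for 6644 without (-0.09 and 0.10 GC corrected).

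Of 31 measured basic leucine zipper relatives, 14 were higher and 8 lower at 1% than at 20% oxygen in control cells (13 and 5 GC corrected). Among all genes 20.5% were called higher and 39.6% lower, and 23.1% each way GC corrected. These shares apply to each list of this paragraph. JUN, the AP-1 subunit, had 3.58 and 2.78 in the control cultures at 1% and 0.0888 and 0.109 at 20% (32.1-fold higher, adjusted p = 0.000152). ATF2 went the other way, with 1.23 and 1.81 at 1% and 13.8 and 8.47 at 20% (7.24-fold lower, adjusted p = 0.000517). GC corrected, the log2 difference of ATF2 was -0.67 (adjusted p = 0.0498). Of 6 tribbles, CHAC and GADD relatives, 3 were higher and 3 lower (3 and 2 GC corrected), among them the growth arrest genes GADD45G (2.75 and 2.44 at 1%, 0.214 and 0.293 at 20%, 10.4-fold higher, adjusted p = 0.000155; 5.53-fold GC corrected) and GADD45B (2.54 and 2.22 at 1%, 0.330 and 0.350 at 20%, 6.99-fold higher, adjusted p = 0.000156). Of 19 genes of the IRE1 and ATF6 arms of the unfolded protein response, 7 were higher and 8 lower (6 and 7 GC corrected), against 20.5% and 39.6% of all genes; without control replicate 1 at 1%, 4 were called higher. XBP1, the factor of the IRE1 arm, had 2.13 and 2.25 in the control cultures at 1% and 0.748 and 0.690 at 20% (3.05-fold higher, adjusted p = 0.000226). SEL1L of the same list was lower, with 1.25 and 1.48 at 1% and 5.13 and 4.52 at 20% (3.55-fold, adjusted p = 0.00027). It was not called GC corrected (log2 difference 0.12, adjusted p = 0.326). In the same comparison 0 of 8 pluripotent cell markers were higher and 5 lower (0 and 4 GC corrected), 3 of 5 fibroblast markers were higher and 1 lower (3 and 1 GC corrected), and 2 of 3 trophoblast markers were higher and none lower (2 and 1 GC corrected), beside the same shares of all genes; their part in the results on the 9 regulators was not tested.

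**Figure D5:**
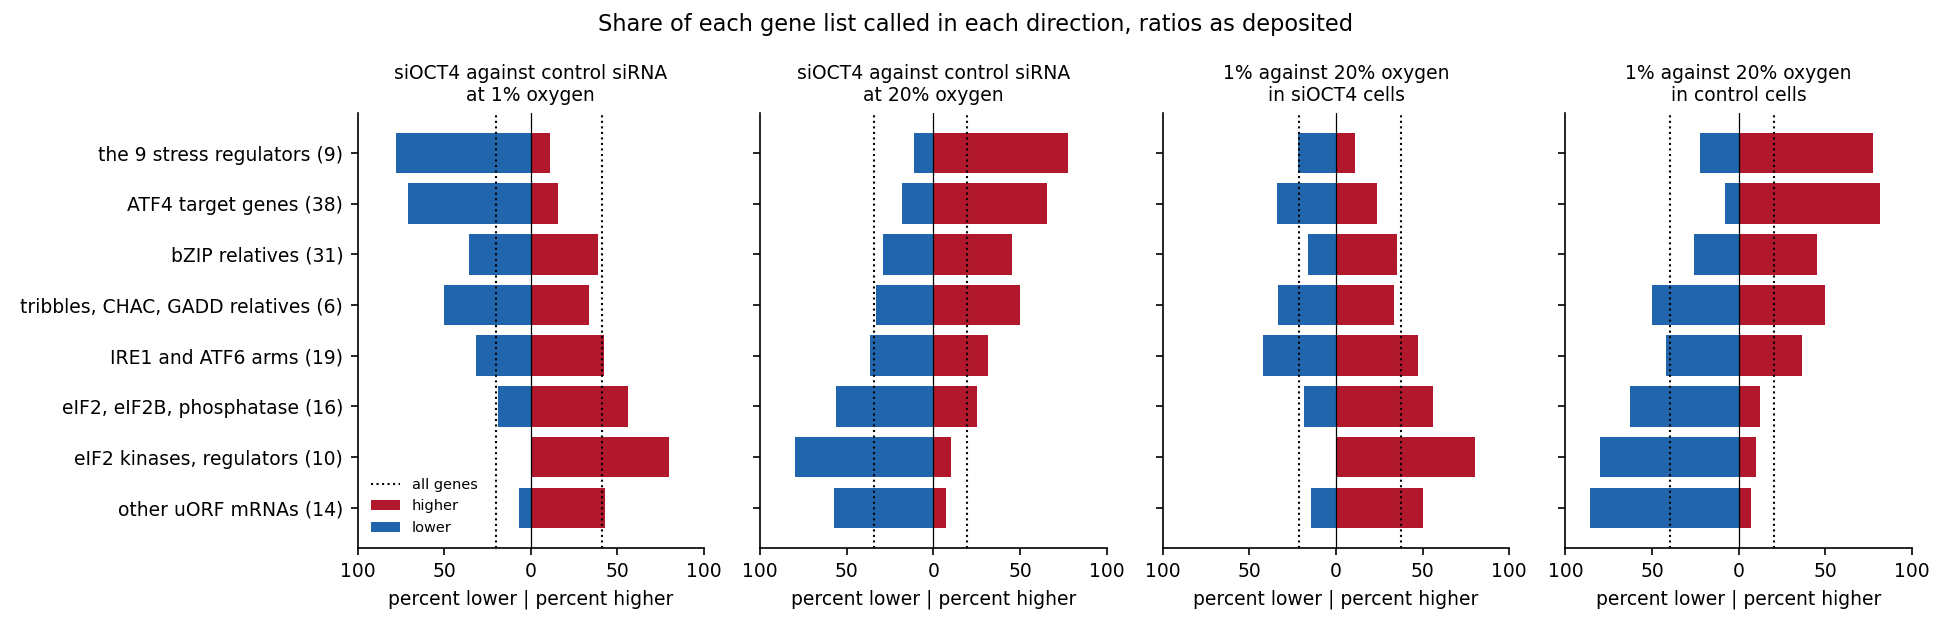
Percent of the measured genes of each list (number in brackets) called higher (red, to the right) or lower (blue, to the left) in 4 comparisons of the ratios as deposited; dotted lines mark the percent of all 15864 genes called in each direction. The 9 regulators and the ATF4 targets lie past the dotted line for higher genes in the control cultures at 1% oxygen and in the siOCT4 cultures at 20%, and past the one for lower genes in siOCT4 cells against control at 1%.

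Genes were ranked by the correlation of their log2 ratio, over the 8 cultures, with the median profile of the 9, among 8079 other genes with no recurrent ratio. ATF4 and CEBPG correlated negatively with the median of the other regulators, so this profile does not describe these members. IFFO2 (r = 0.997) and ZFP36 (r = 0.994), which encodes an RNA-binding protein that destabilises mRNAs, came first, followed by CDKN1A (r = 0.993), the cell cycle inhibitor p21, AMBRA1 and CDCA8. CDKN1A had ratios of 0.961 and 0.914 in the siOCT4 cultures at 1% oxygen, 1.10 and 1.14 in the siOCT4 cultures at 20%, 2.48 and 2.19 in the control cultures at 1%, and 0.340 and 0.543 in the control cultures at 20%. The genes most like ATF4 alone were HSPE1 (r = 0.979), a mitochondrial chaperonin subunit, MANF (r = 0.978), an endoplasmic reticulum stress protein, and DUT (r = 0.977), a nucleotide hydrolase. HSPE1 had 0.841 and 0.831 in the siOCT4 cultures at 1%, 1.82 and 1.97 in the siOCT4 cultures at 20%, 1.15 and 0.867 in the control cultures at 1%, and 2.33 and 3.22 in the control cultures at 20%. The 8 cultures form 4 groups, so these correlations are descriptions.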

How the data were processed

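The deposited table gives 1 value per gene and culture in the unit ratio, which the authors computed as RNC level over RNA level; "-" marks no value. Per the submitters' processing notes, edgeR and hg19 were used, and the sources used here do not give their role, the mapper, filters or depth. Columns marked "sO" were read as siOCT4, and 0 columns were left without a sample. With no counts, no interval for counting error could be given.

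The log2 ratio of the 15864 genes with a ratio in all 8 cultures was fitted with limma 3.58.1 (trend and robust settings, statmod 1.5.0, R 4.3.3), with 4 group means, two-sided tests and Benjamini-Hochberg adjustment over all genes at 0.05. The fit was also run on simulated data with independent noise and no GC trend that differed between groups. That run therefore cannot speak for calls that go with the GC trends. The labels do not say whether cultures were grown separately, so p-values may measure technical spread. The comparisons share groups and are not independent. Whether replicate numbers pair the cultures is not known, and the main fit used no replicate block. The deviations of replicates from the group means correlated between -0.23 and 0.02 among the groups, which cannot settle the pairing.

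GC correction took residuals from a spline (6 degrees of freedom) on transcript GC content from GENCODE 29 (15261 genes, 96.2%). A ratio was called recurrent where 3 or more genes had it in the same culture (relative tolerance 2e-06). Alternatives were this correction with and without length, median centring, a replicate block, limma without trend and robust settings, a pseudocount of 0.1, leaving out genes with a recurrent ratio, and leaving out each culture; the crossed replicate block and leaving out a culture after GC correction were added after seeing the data.

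The members and gene lists were chosen with earlier results of these data known. All 9 members are named. From each other list, the 2 genes with the largest called difference per comparison whose groups did not overlap and whose ratios did not recur could be named. So could the 5 genes most like the median profile of the 9 and the 3 most like ATF4. Python 3.11.15, pandas 2.3.3, numpy 2.4.6 and matplotlib 3.10.9 were used.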

Additional observations from a re-analysis of the deposited data

Results flagged for a closer look

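For 8 of the 9 regulators the difference between siOCT4 and control cells was itself different at 1% and at 20% oxygen, by the interaction test (limma, adjusted p under 0.05). Among all genes 68.7% were called in this test, 26.2% as negative and 42.5% as positive. GC corrected, 43.7% of all genes were called, 21.4% as negative and 22.3% as positive. On the log2 scale, the difference at 1% minus that at 20% was -5.68 for TRIB3, -4.48 for CEBPB, -3.86 for DDIT3, -3.82 for ATF3, -3.69 for CHAC1, -3.17 for PPP1R15A, -1.77 for ATF5 and 2.08 for CEBPG. As deposited, the 7 negative ones had both siOCT4 cultures above both control cultures at 20% oxygen and below them at 1%. How many of all genes had this crossing was not counted. The stricter order of all groups given above, which these 7 also had, was found in 4.95% of all genes. GC corrected, the interactions of TRIB3 (-4.08), DDIT3 (-4.11), ATF3 (-4.05), CEBPB (-2.18), CHAC1 (-2.03) and PPP1R15A (-1.85) were called and those of ATF5 and CEBPG were not; the PPP1R15A call was then made in 3 of the 8 fits that left out a culture.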

How the results depend on the processing

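The counts of all genes called moved by over 1.5 times under these settings. For siOCT4 against control at 20% oxygen the count was 8450, but 2242 GC corrected and 2428 with length as well. At 1% oxygen it was 9672, but 6234 corrected for GC and length and 6422 without genes with recurrent ratios. That filter left 8087 of 15864 genes, so the counts fell with fewer genes tested, while the percent called was 79.4% against 61.0%, and 77.0% against 60.2% for oxygen in control cells and 85.0% against 68.7% for the interaction. For 1% against 20% oxygen in control cells it was 9545, but 6230 without such genes. In siOCT4 cells it was 9362, but 5647 GC corrected and 4486 with length. For the interaction it was 10893, but 6665, 6458 and 6874 under these 3 settings. For siOCT4 at 20% against control at 1% it was 1855, but 3451 and 3625 corrected, and 684 with the replicate block. Of the 9 regulators, 3 were called for oxygen in siOCT4 cells, but 1 GC corrected and 5 with median centring; for siOCT4 at 20% against control at 1%, 5 were called, but 8 with either correction and 3 with the replicate block.

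With the replicate block the other counts of all genes were 7354, 9063, 8885, 8613, 10484 and 2892 (siRNA at 20% and 1%, oxygen in control and siOCT4 cells, interaction, and siOCT4 at 1% against control at 20%), all within 1.5 times; crossing the replicate numbers in control cells gave 9626.

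Leaving out each culture in turn gave the following ranges for all genes and for the regulators. They were 5063 to 9244 and 6 to 8 (siRNA at 20%), 7460 to 10297 and 6 to 8 (siRNA at 1%), 7468 to 9704 and 8 to 9 (oxygen in control cells), 6323 to 10074 and 2 to 4 (oxygen in siOCT4 cells), 9565 to 11202 and 8 to 8 (interaction), 990 to 4013 and 3 to 6 (siOCT4 at 1% against control at 20%), and 0 to 2356 and 0 to 8 (siOCT4 at 20% against control at 1%). After GC correction the regulators ranged over 0 to 6, 5 to 8, 9 to 9, 0 to 2, 6 to 7, 6 to 8 and 3 to 8 in the same order.

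The sign of a log2 difference turned for CEBPG with the corrections for GC and for GC and length: -0.51 and -0.63 for the siRNA at 1% oxygen, 0.60 and 0.61 for oxygen in control cells, and -0.26 and -0.40 for the interaction. For siOCT4 at 1% against control at 20% it was -0.027 with GC and length and -0.0448 with median centring. For oxygen in siOCT4 cells, where DDIT3, TRIB3 and CEBPG kept their sign, it turned for ATF4 (0.12 and 0.28), CEBPB (0.29 and 0.38), ATF3 (-0.083 GC corrected, -0.13 with median centring), CHAC1 (0.23 with GC and length), ATF5 (-0.26 with median centring, and -0.090 to 0.092 when a culture was left out) and PPP1R15A (-0.22, and -0.043 to 0.13). For ATF4 it was -0.36 with median centring and -0.10 to 0.15 when a culture was left out (lowest without control replicate 2 at 1%) for the siRNA at 1%, and -0.19 with median centring for the interaction. The cause was not tested. With 2 cultures a group and no counts, the depth behind each ratio is unknown.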
